A study of Mus musculus with 48 samples.

Results

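Striatal RNA of 36 genes for glutamate receptors and for the scaffold proteins that hold them at the postsynaptic membrane was compared over 48 mice of 6 genotypes. The genes were taken by symbol from a table of 48795 genes: 4 AMPA, 5 kainate, 6 NMDA, 1 delta and 6 metabotropic receptor genes, and 14 scaffold genes of the Homer, Dlg, Dlgap and Shank families. All 36 passed the filter on low counts. The genotypes, each with 8 mice (4 females and 4 males), were Q140 x Msh3-/-, Q140 x Msh3+/-, Q140, Msh3-/-, Msh3+/- and wild type (WT), all on C57BL/6. Q140 mice model Huntington's disease with a long CAG repeat knocked into Htt, heterozygous per the labels; Msh3 encodes a DNA mismatch repair protein involved in the lengthening of such repeats in somatic cells. Both are germline alleles, carried by neurons and all other cells. Mice are labelled as 12 months old, but the extraction protocol puts dissection at 6 months, which leaves the age in doubt.

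Glutamate released by cortical and thalamic axons acts on the spines of striatal projection neurons, the main output cells of this brain region. AMPA and kainate receptors carry fast current, NMDA receptors pass calcium and gate plasticity, and metabotropic receptors signal through G proteins on both sides of the synapse. Dlg proteins bind receptor tails, Dlgap proteins join Dlg to Shank, and Homer proteins join Shank to the metabotropic receptor encoded by Grm5. Altered corticostriatal synapses are a long-studied part of Huntington's disease models.

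Library totals ran between 38.92 and 60.9 M counts (M, 1e6), with a median of 47.33 M. Msh3 RNA separated mice by their labelled Msh3 alleles without overlap, with or without Q140, but rose with each allele labelled as lost. Its median was 116.0 CPM (counts per 1e6 counts of the TMM-scaled library) in Q140 x Msh3-/- mice. It was 75.38 CPM in Q140 x Msh3+/- mice and 30.33 CPM in Q140 mice. Counts over the whole gene therefore do not show loss of a working transcript, and the Msh3 genotypes are those of the labels. Defining markers of spiny projection neurons were abundant in every library, with the 12 markers summing to 9088 to 11710 CPM in Q140 x Msh3-/-, 7918 to 9540 in Q140 x Msh3+/- and 7118 to 7990 in Q140 mice, against 12410 to 13890 CPM in WT mice. Of the markers of other cell types, 7 of 7 endothelial and mural, 5 of 9 astrocyte, 4 of 8 microglial, 3 of 4 cholinergic, 2 of 7 oligodendrocyte, 1 of 5 oligodendrocyte precursor and 1 of 7 GABAergic interneuron genes were lower in Q140 than in WT mice; of 9 glutamatergic neuron genes 2 were higher, and of 5 ependymal genes 1 was higher and 1 lower. Over all genes tested, 16.0% were lower and 17.0% higher in Q140 than in WT mice, by the test described below. 2 libraries stood apart on the main axis of variation left after genotype and sex, female 1 of Q140 x Msh3+/- and male 1 of Q140 x Msh3-/-.

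The 36 genes differed widely in abundance. On the per-length FPKM scale in WT mice, Dlg4 was the highest with a median of 193.0 FPKM (181.0 to 207.0), followed by Dlgap3 at 124.0, Gria1 at 96.2 to 104.0 and Grin1 at 72.8 FPKM, and none of these 4 overlapped the next gene in the order. Shank3 (60.3 FPKM), Gria2 (58.2), Grik5 (53.4) and Grm5 (49.7) came next with overlapping ranges. At the low end, Grm2 (0.344 FPKM), Grik1 (0.706) and Grm8 (1.09) were the lowest. Grin3a, Homer2 (1.6 FPKM), Grin2d, Homer3 and Grik4 came next, with medians between 1.48 and 2.26 FPKM. Within families, Gria1 made up a median of 50.7% of summed AMPA receptor FPKM in WT mice. Grin2b made up 57.2% of the summed FPKM of the GluN2 genes and Grik5 54.4% of that of the kainate genes. These shares depend on the gene length behind FPKM, 6043 bases for Gria1 and 15548 for Gria2. In CPM, which takes no account of length, Gria2 had a WT median of 923.5 and Gria1 one of 618.2.

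The first comparison asked what the Q140 allele changed with both Msh3 alleles present. In Q140 mice against WT mice 25 of the 36 genes passed an adjusted p of 0.05, 19 lower and 6 higher, in edgeR's quasi-likelihood test with Benjamini-Hochberg adjustment over 19714 genes, which gave all adjusted p-values below. Over all genes tested 33.0% passed, 16.0% lower and 17.0% higher, so that 52.8% of the members against 16.0% of all genes were lower. The median log2 fold change of the 36 was -0.15, against -0.004 for all genes. By group, 1 of 4 AMPA, 3 of 5 kainate, 4 of 6 NMDA, 4 of 6 metabotropic and 6 of 14 scaffold genes fell, as did Grid1; those that rose were Grm8 and 5 scaffold genes. The ranges of the groups did not overlap for 14 members, 12 lower and 2 higher, against 8.97% of all genes, 5.1% lower and 3.88% higher. With library totals as the scaling, 73.7% of all called genes were higher, against 51.6% with TMM scaling, and 15 members were lower and 7 higher. With the name prefix of the mice as a term, 16 members were lower and 4 higher, and 16.9% of all genes passed. Fewer cells of a type and less RNA per cell cannot be told apart in whole tissue. Of the 12 spiny projection neuron markers, 11 fell and 1 rose in the same comparison, with a median log2 of -0.75 over the 12. Their part in these results was not tested.

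**Figure D1:**
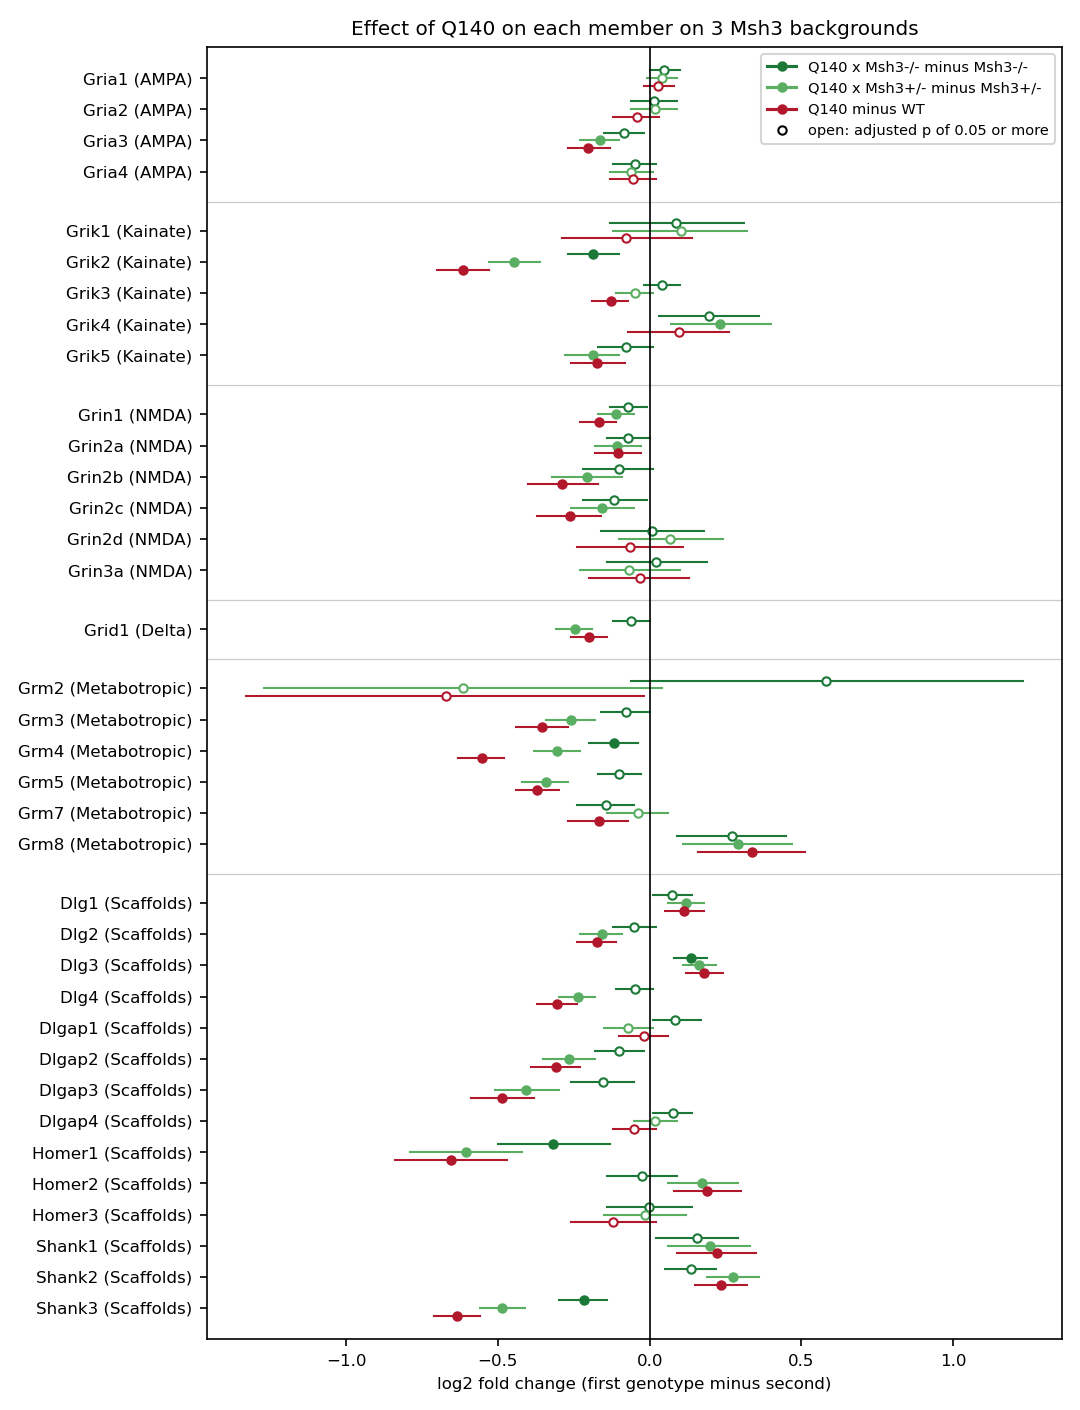
Log2 fold change of each of the 36 genes for Q140 on the Msh3-/-, Msh3+/- and WT backgrounds (points, with bars for the 95% interval; filled points passed an adjusted p of 0.05). Most receptor genes lie left of 0, the scaffold genes lie on both sides, and points for the Msh3-/- background sit nearest to 0 for Shank3 (-0.22, against -0.64 on the WT background) and Grik2.

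Promoter sequence is shown for 3 of the 4 genes that fell in all 3 Q140 comparisons described below, Grik2, Homer1 and Shank3, and for Homer2, which rose in Q140 mice while Homer1 fell. RefSeq windows on GRCm38.p6 were held for 24 of the 36 genes. Each line gives the 250 bases before an annotated start, read along the gene's strand. Capitals mark TGACG, the core of the cyclic AMP response element, and GGGCGG, the GC box, on either strand; adjacent copies can run together. The windows are chr10:49788755-49789004 (minus strand) for Grik2, chr13:93303507-93303756 (plus) for Homer1, chr7:81706926-81707175 (minus) for Homer2 and chr15:89499358-89499607 (plus) for Shank3.
Grik2 promoter: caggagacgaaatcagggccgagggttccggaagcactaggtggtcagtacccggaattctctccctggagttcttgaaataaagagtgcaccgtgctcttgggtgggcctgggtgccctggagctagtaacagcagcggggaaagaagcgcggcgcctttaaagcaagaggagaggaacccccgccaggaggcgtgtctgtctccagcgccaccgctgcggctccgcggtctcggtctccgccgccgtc
Homer1 promoter: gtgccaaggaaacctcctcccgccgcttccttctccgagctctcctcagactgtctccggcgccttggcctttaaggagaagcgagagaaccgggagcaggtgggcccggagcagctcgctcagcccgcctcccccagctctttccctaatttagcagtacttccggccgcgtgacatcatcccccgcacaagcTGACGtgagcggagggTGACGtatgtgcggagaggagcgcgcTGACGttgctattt
Homer2 promoter: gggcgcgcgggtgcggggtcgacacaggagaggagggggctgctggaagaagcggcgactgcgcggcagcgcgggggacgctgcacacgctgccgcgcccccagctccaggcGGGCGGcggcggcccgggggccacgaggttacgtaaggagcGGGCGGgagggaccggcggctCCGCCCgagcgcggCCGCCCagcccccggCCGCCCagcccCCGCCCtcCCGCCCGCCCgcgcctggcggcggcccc
Shank3 promoter: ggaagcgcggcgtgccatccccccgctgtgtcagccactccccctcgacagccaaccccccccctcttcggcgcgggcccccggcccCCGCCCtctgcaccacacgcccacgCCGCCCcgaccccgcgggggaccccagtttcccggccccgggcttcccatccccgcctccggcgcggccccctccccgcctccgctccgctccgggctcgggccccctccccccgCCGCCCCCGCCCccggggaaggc
The Homer1 window held 3 copies of TGACG and no GGGCGG, the Homer2 window 8 and the Shank3 window 4 copies of GGGCGG, and the Grik2 window neither. In the 250 bases before the start, 17.8% of 32851 RefSeq windows held TGACG and 32.7% held GGGCGG. Of the 38 windows of the 24 members, 5 held TGACG and 17 held GGGCGG there. The Homer2 and Shank3 sequences were 83.2% and 82.4% G or C, against a median of 52.4% for all windows.

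Of the AMPA receptor genes, which encode the pore subunits of fast transmission, Gria3 was the one that fell. Gria3 had 213.1, 223.5 and 234.8 CPM (lowest, median and highest mouse) in Q140 mice, against 236.8, 255.7 and 278.9 CPM in WT mice. The groups did not overlap, and the log2 fold change was -0.20 (SE 0.0348, adjusted p = 4.96e-06). Gria1, the subunit highest in FPKM, had 601.4 to 659.9 CPM in Q140 mice and 596.3 to 644.5 CPM in WT mice (log2 0.03, 95% interval -0.02 to 0.08). Gria2, the subunit that blocks calcium entry through the pore, differed by a log2 of -0.04 (-0.12 to 0.03) and Gria4 by -0.06 (-0.13 to 0.02), and neither passed. The Gria3 share of AMPA receptor FPKM was 10.6% to 12.0% in Q140 mice and 12.2% to 13.6% in WT mice.

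Kainate receptor genes held the member with the lowest adjusted p among the channels, Grik2, a core pore subunit. Grik2 had 97.41, 108.1 and 115.5 CPM in Q140 mice, against 157.2, 162.9 and 177.0 CPM in WT mice. All 8 Q140 mice lay below all 8 WT mice, and the log2 fold change was -0.62 (SE 0.0446, adjusted p = 1.57e-16), so that Grik2 fell by 34.7%. Grik3, a related pore subunit, fell by 0.13 and Grik5, a high-affinity subunit, by 0.17 on the log2 scale, with overlapping ranges (adjusted p = 0.00098 and 0.0021). Both lost their call with library totals as the scaling. Grik1 and Grik4 were scarce and did not pass. The Grik2 share of kainate receptor FPKM was 13.5% to 15.6% in Q140 mice and 17.1% to 21.3% in WT mice.

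Of the 6 NMDA receptor genes 4 fell. Grin2b, which encodes the GluN2B subunit, had 553.3, 627.7 and 726.8 CPM in Q140 mice, against 696.3, 749.5 and 971.5 CPM in WT mice. These ranges overlapped, and the log2 fold change was -0.29 (SE 0.0587, adjusted p = 0.000104). Grin2c fell by 0.26 (adjusted p = 7.01e-05), Grin1, the subunit every NMDA receptor needs, by 0.17 (adjusted p = 2.55e-05) and Grin2a by 0.10 (adjusted p = 0.0275). Grin2a was not called in females alone or with library totals as the scaling. Grin2d and Grin3a differed by -0.07 and -0.03 without passing. Grin2b made up overlapping shares of the summed FPKM of the 4 GluN2 genes, 55.0% to 59.1% in Q140 mice and 54.1% to 63.8% in WT mice. Grid1, a delta receptor that joins pre- and postsynaptic membranes through cerebellins, had 87.76, 90.28 and 93.85 CPM in Q140 mice and 97.91, 105.0 and 111.8 CPM in WT mice, without overlap (log2 -0.20, adjusted p = 5.35e-07).

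Metabotropic receptors had the lowest group median, a log2 of -0.36 over 6 genes, against -0.13 for kainate, -0.14 for NMDA, -0.09 for scaffold and -0.05 for AMPA genes; differences between these medians were not tested. With library totals as the scaling, the medians were -0.29 for metabotropic, -0.06 for kainate, -0.07 for NMDA, -0.02 for scaffold and 0.02 for AMPA genes, which changed the sign of the AMPA median. Grm4, a group III receptor found on striatopallidal terminals, had 73.58, 81.36 and 83.9 CPM in Q140 mice and 108.3, 114.6 and 133.1 CPM in WT mice. No Q140 mouse reached the WT range (log2 -0.55, SE 0.0393, adjusted p = 7.07e-17). Grm5, the group I receptor that signals through phospholipase C and is abundant in projection neurons, had 385.1, 397.9 and 420.7 CPM in Q140 mice and 466.6, 525.3 and 567.1 CPM in WT mice (log2 -0.37, adjusted p = 6.81e-12). Grm3, a group II receptor of neurons and astrocytes, had 70.17, 78.29 and 84.54 CPM in Q140 mice and 91.55, 102.7 and 105.8 CPM in WT mice (log2 -0.36, adjusted p = 9.45e-10). Both pairs of ranges were apart.

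The other metabotropic genes were smaller or less certain. Grm7, a presynaptic group III receptor, fell by 0.17 with overlap (adjusted p = 0.00653); it lost its call in females alone, in males alone and with library totals as the scaling. Grm8 went the other way: 11.98, 13.37 and 15.32 CPM in Q140 mice, against 8.309, 11.05 and 13.29 CPM in WT mice, a log2 fold change of 0.34 (SE 0.0904, adjusted p = 0.00276) that was not called in males alone. Grm2, a group II receptor of cortical terminals, was near the floor of the data with medians of 1.148 CPM in Q140 and 1.728 CPM in WT mice, and its log2 fold change of -0.67 (SE 0.334) did not pass (adjusted p = 0.122). The 2 libraries with the highest Grm2 were female 2 of Q140 x Msh3-/- (6.375 CPM) and male 4 of Msh3+/- (6.298 CPM). They also had the highest sums of 9 markers of cortical and other glutamatergic neurons, 114.0 and 109.0 CPM. The lowest sum in any library was 23.37 CPM. The next highest sum, 66.6 CPM in female 2 of Msh3-/-, came with a Grm2 of 1.547 CPM. The part of RNA from such neurons in the Grm2 values was not tested.

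Scaffold genes moved in both directions within the Dlg, Homer and Shank families. Among the Dlg genes, which encode membrane-associated guanylate kinases, Dlg4 and Dlg2 fell and Dlg3 and Dlg1 rose. Dlg4, the most abundant member, had 745.1, 796.6 and 821.0 CPM in Q140 mice and 924.4, 984.1 and 1061 CPM in WT mice. The ranges were apart and the log2 fold change was -0.31 (SE 0.0313, adjusted p = 1.49e-11). Dlg2 fell by 0.17, also without overlap (adjusted p = 6.82e-05); a second table entry under the same symbol, with a median of 2.174 CPM in Q140 and 2.601 CPM in WT mice, did not pass and was not counted among the 36. Dlg3, known for its part in trafficking NMDA receptors, had 202.7, 224.2 and 231.2 CPM in Q140 mice and 181.5, 197.1 and 202.1 CPM in WT mice, again without overlap (log2 0.18, adjusted p = 2.11e-06). Dlg1 rose by 0.11 (adjusted p = 0.00416) and was not called in either sex alone. The Dlg4 share of Dlg FPKM was 59.1% to 61.9% in Q140 mice and 64.6% to 67.2% in WT mice.

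The Dlgap genes fell where they changed. Dlgap3, the Dlgap gene best known in the striatum because its loss in mice causes repetitive grooming, had 367.2, 412.5 and 431.3 CPM in Q140 mice and 498.7, 571.0 and 661.9 CPM in WT mice. The ranges were apart, and Dlgap3 fell by 28.6% (log2 -0.49, SE 0.0534, adjusted p = 2.25e-10). Dlgap2 fell by 0.31 without overlap (adjusted p = 4.13e-08). Dlgap1 (log2 -0.02) and Dlgap4 (-0.05) did not pass.

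Shank3 and Homer1 fell while close relatives rose. Shank3, a master scaffold of the spine whose loss weakens corticostriatal synapses in mice, had 314.7, 359.8 and 429.0 CPM in Q140 mice and 527.3, 553.8 and 607.0 CPM in WT mice. Every Q140 mouse was below every WT mouse (log2 -0.64, SE 0.0401, adjusted p = 9.24e-19). Shank2 had 179.9, 195.1 and 211.1 CPM in Q140 mice and 158.4, 166.0 and 172.8 CPM in WT mice, a rise of 0.23 on the log2 scale without overlap (adjusted p = 3.41e-05). Shank1 rose by 0.22 with overlap (adjusted p = 0.00968) and was not called in males alone. Shank3 made up 51.1%, 53.8% and 57.7% of Shank FPKM in Q140 mice, against 66.0%, 68.5% and 70.8% in WT mice, a share that does not depend on how libraries are scaled.

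Homer1 had 139.5, 147.4 and 162.7 CPM in Q140 mice and 180.1, 234.9 and 265.4 CPM in WT mice. WT mice spread widely, but the groups did not overlap (log2 -0.66, SE 0.0942, adjusted p = 3.5e-07), and Homer1 fell by 36.5%. Homer1 produces long scaffold forms and a short activity-induced form that uncouples them, and counts per gene do not separate these. Homer2 rose by 0.19 with overlapping ranges (21.17 to 27.53 CPM in Q140 mice, 18.42 to 22.14 CPM in WT mice, adjusted p = 0.00878) and was not called in males alone; Homer3, which overlaps Ddx49 on the other strand, did not pass (log2 -0.12, adjusted p = 0.195). Homer1 made up 76.6% to 79.7% of Homer FPKM in Q140 mice and 82.0% to 87.2% in WT mice.

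**Figure D2:**
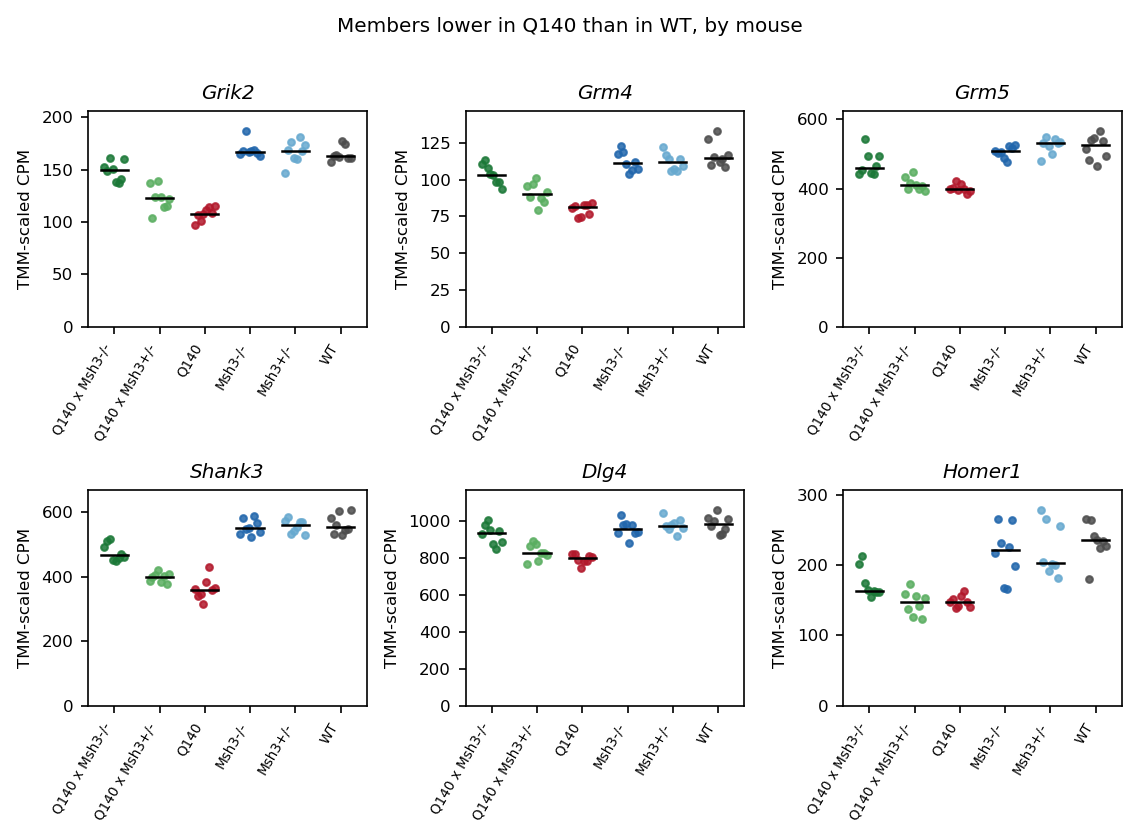
TMM-scaled CPM of 6 genes that were lower in Q140 than in WT mice, with 1 point per mouse, a line at each genotype's median and genotypes along the x axis. Q140 mice lie below all WT mice in all 6 panels (97.41 to 115.5 CPM for Grik2, against 157.2 to 177.0 CPM in WT mice), and the Q140 x Msh3-/- medians lie between the Q140 and WT medians in each.

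**Figure D3:**
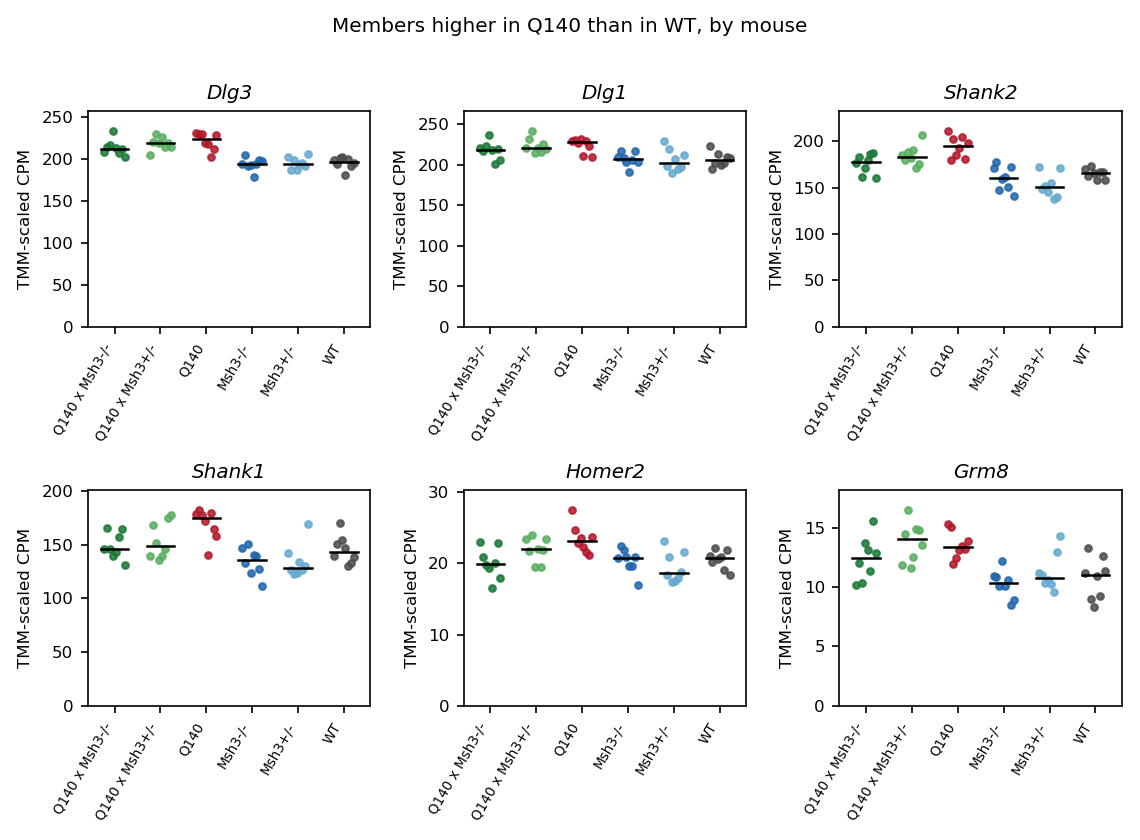
The same plot for the 6 genes that were higher in Q140 than in WT mice. Dlg3 (202.7 to 231.2 CPM in Q140 mice) and Shank2 are apart from WT, and the other 4 overlap with it.

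**Figure D4:**
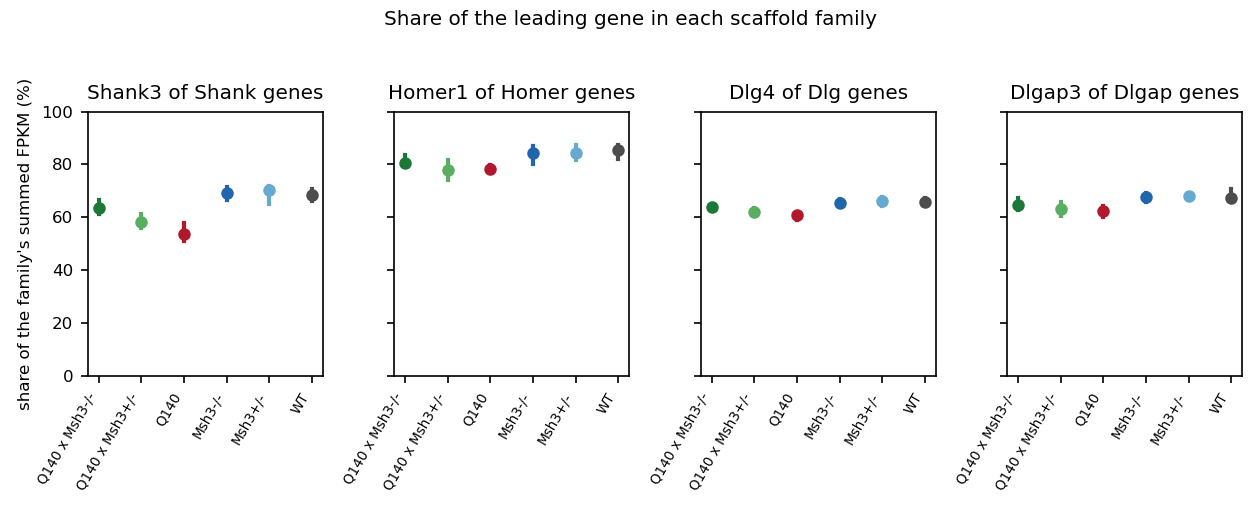
Share of the leading gene in the summed FPKM of its scaffold family, as the median (point) and range (line) of 8 mice per genotype, in percent. Shank3 falls to a median of 53.8% in Q140 mice, against 68.5% in WT mice, and the Q140 x Msh3-/- median is 63.4%.

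A comparison that shares no library with the first asked what Q140 changed in mice labelled Msh3+/-. In Q140 x Msh3+/- against Msh3+/- mice 24 members passed, 17 lower and 7 higher, where 21.5% of all genes did (10.8% lower and 10.8% higher). With library totals as the scaling 13 members were lower and 8 higher, and 76.9% of all called genes were higher, against 49.9% with TMM scaling. Of the 6 NMDA genes, 4 were lower with TMM scaling and 0 with library totals. Of the 25 members called in Q140 against WT, 23 (92.0%) passed here with the same sign, or 95.8% of the 24; for all genes the shares were 52.2% and 79.9%. Grik3 and Grm7 were the members called in Q140 against WT that did not pass here, and Grik4 rose (log2 0.23, adjusted p = 0.0406). Grik2 had 104.0, 123.1 and 138.9 CPM in Q140 x Msh3+/- mice and 146.6, 168.1 and 181.6 CPM in Msh3+/- mice, without overlap (log2 -0.45, adjusted p = 1.61e-11). Shank3 had 376.4 to 419.8 CPM in Q140 x Msh3+/- mice and 528.7 to 584.6 CPM in Msh3+/- mice, also apart (log2 -0.49, adjusted p = 3.89e-14). Homer1 fell by a log2 of 0.60 and Grm5 by 0.34, both without overlap, and 10 members in all were apart where 4.6% of all genes were. With the name prefix of the mice as a term, 15 members passed.

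The third comparison asked the same in mice labelled Msh3-/-. Between Q140 x Msh3-/- and Msh3-/- mice 5 of the 36 passed, 4 lower and 1 higher, where 7.86% of all genes did (3.84% lower and 4.01% higher). They were Shank3, Grik2, Homer1 and Grm4, which fell, and Dlg3, which rose, and all 5 had the same sign and passed in the other 2 Q140 comparisons. Of the 25 members called in Q140 against WT, 5 passed here with the same sign, a share like that over all genes (1304 of 6506). With library totals as the scaling 3 members were lower and 4 higher, and 66.8% of all called genes were higher, against 51.1% with TMM scaling. DESeq2 called 9 members, and 3 were called without a filter on low counts or with plate column as a term. With the name prefix of the mice as a term 5 were called, Shank3, Grik2, Dlgap3, Grm5 and Shank2, so that Dlg3, Homer1 and Grm4 lost their call.

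Shank3 had 448.2, 465.4 and 517.5 CPM in Q140 x Msh3-/- mice and 521.6, 549.1 and 587.4 CPM in Msh3-/- mice. The ranges were apart and the log2 fold change was -0.22 (SE 0.0399, adjusted p = 0.000163). Grik2 had 136.9, 149.7 and 161.5 CPM in Q140 x Msh3-/- mice and 162.8, 167.3 and 187.2 CPM in Msh3-/- mice, likewise apart (log2 -0.19, adjusted p = 0.00457). These were the 2 members without overlap, against 1.09% of all genes. Dlg3 had 202.5, 212.6 and 233.9 CPM in Q140 x Msh3-/- mice and 178.8, 194.3 and 205.3 CPM in Msh3-/- mice, with overlap (log2 0.14, adjusted p = 0.00147). Homer1 (log2 -0.32, adjusted p = 0.0274) and Grm4 (-0.12, adjusted p = 0.0491) overlapped between groups, and both lost their call without the filter on low counts and with plate column as a term. Grm8 differed by 0.27 here, close to its 0.34 on the WT background, but did not pass (adjusted p = 0.0564).

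The difference between those effects was tested as an interaction, the Q140 effect in Msh3-/- mice minus that in mice with both alleles. It passed for 10 members, all positive, where 6.15% of all genes passed (4.09% positive and 2.06% negative); with library totals 7 members were positive and 1 negative, and 31.0% of all called genes were positive, against 66.4% with TMM scaling. It is computed in part from the Q140 and WT libraries of the first comparison, whose values stand above. The largest of the 10 were Grm4 (log2 0.43, SE 0.0553, adjusted p = 1.88e-07), Grik2 (0.43, SE 0.0628, adjusted p = 2.88e-06) and Shank3 (0.42, SE 0.0565, adjusted p = 6.14e-07), followed by Dlgap3 at 0.33, Grm3 at 0.28, Grm5 at 0.27, Dlg4 at 0.26, Dlgap2 at 0.21, Grik3 at 0.17 and Grid1 at 0.14. Of these 10, 3 were metabotropic, 2 kainate, 1 delta and 4 scaffold genes, and no AMPA or NMDA gene passed. Grik3, Grid1 and Dlgap2 lost their call with library totals as the scaling. Homer1 had an interaction of 0.34 that did not pass (SE 0.133, adjusted p = 0.132). Grm8, Dlg1, Dlg3, Shank1, Shank2 and Homer2 did not pass either. Spiny projection neuron markers moved the same way, with 11 of 12 passing and a median interaction of 0.44; the part of cell numbers or of these markers in the members' values was not tested.

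For mice labelled Msh3+/- the interaction passed for no member, and for 0.0152% of all genes. At an unadjusted p of 0.05 there were 3 members, Grm4 (log2 0.25, adjusted p = 0.0799), Grik2 (0.17) and Shank3 (0.15), and DESeq2 called 1, Grm4.

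Set directly against Q140 mice, the Q140 mice labelled Msh3-/- had 14 members called, 12 higher and 2 lower, where 16.3% of all genes were called (8.75% higher and 7.57% lower). This comparison shares its Q140 libraries with Q140 against WT, and its values are given beside those above with no measure of likeness. With library totals 10 members were higher and 4 lower, and 30.9% of all called genes were higher, against 53.6% with TMM scaling. Grik2 had 136.9, 149.7 and 161.5 CPM in Q140 x Msh3-/- mice against 97.41, 108.1 and 115.5 CPM in Q140 mice, and the ranges were apart (log2 0.46, SE 0.0446, adjusted p = 1.6e-11). Grm4 had 93.52, 103.3 and 113.0 CPM in Q140 x Msh3-/- mice against 73.58, 81.36 and 83.9 CPM in Q140 mice (log2 0.38, adjusted p = 1.79e-10). Shank3 was higher by 0.39 (adjusted p = 7.78e-11), Grm3 by 0.27, Grm5 by 0.24 and Dlg4 by 0.22, all without overlap, so that 6 members were apart where 2.87% of all genes were, 2.01% with the higher values in Q140 x Msh3-/- mice.

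The other 6 genes that were higher in Q140 x Msh3-/- than in Q140 mice overlapped between groups: Dlgap3 (log2 0.26), Dlgap2 (0.18), Grm7 (0.15), Grid1 (0.13), Grik3 (0.12) and Dlg2 (0.11). The 2 that were lower were Homer2, at 16.46, 19.89 and 23.04 CPM in Q140 x Msh3-/- mice against 21.17, 23.2 and 27.53 CPM in Q140 mice (log2 -0.22, adjusted p = 0.00444), and Shank2 (log2 -0.14, adjusted p = 0.0186). Homer1 was higher by 0.23 without passing (adjusted p = 0.0946). In males alone 6 members were called. With the name prefix as a term 8 were called, of which 6 (Dlg4, Dlgap2, Grik2, Grm3, Grm4 and Shank3) were among the 14 and Grm8 and Homer1 were not.

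With 1 Msh3 allele labelled as lost, Q140 x Msh3+/- against Q140 mice, Grik2 and Grm4 were the members called, both higher by a log2 of 0.18 with overlapping ranges (adjusted p = 0.0194 and 0.0063), where 1.32% of all genes passed (0.842% higher and 0.477% lower). Grm4 had 79.13, 90.03 and 101.1 CPM in Q140 x Msh3+/- mice and 73.58, 81.36 and 83.9 CPM in Q140 mice. Without the 2 libraries that stood apart, Grm4 was the 1 member called.

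Some members differed from WT in Q140 mice labelled Msh3-/-. Between Q140 x Msh3-/- and WT mice 11 members passed, 10 lower and 1 higher, where 6.28% of all genes did (3.37% lower and 2.91% higher); with library totals 6 were lower and 3 higher, and 73.7% of all called genes were higher, against 46.3% with TMM scaling. Homer1 was the lowest, at 154.3, 163.3 and 213.3 CPM in Q140 x Msh3-/- mice and 180.1, 234.9 and 265.4 CPM in WT mice (log2 -0.43, SE 0.0939, adjusted p = 0.00219). Shank3 (-0.24, adjusted p = 2.3e-05) and Grin1 (-0.13, adjusted p = 0.00444) were below WT without overlap. Dlg3 (0.13, adjusted p = 0.00332) was narrowly above WT without overlap. Its lowest Q140 x Msh3-/- mouse had 202.5 CPM and its highest WT mouse 202.1 CPM. Of all genes, 1.11% were apart. Dlgap3 and Grin2c (both -0.22), Grm4 (-0.18), Grik2 (-0.15), Grm5 (-0.14, adjusted p = 0.0149), Dlgap2 (-0.13) and Gria3 (-0.12) passed with overlapping ranges. Gria3, Dlgap2, Grm5 and Grik2 lost their call with library totals as the scaling.

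Without Q140, no member passed for either Msh3 genotype. In Msh3-/- against WT mice edgeR called 0 members and 0.0457% of all genes, with 3 members at an unadjusted p under 0.05, and in Msh3+/- against WT mice 0 members and 0.0101% of all genes, again with 3 at an unadjusted p under 0.05; DESeq2 also called 0 members in both. The median log2 over the 36 was -0.036 for Msh3-/- and -0.024 for Msh3+/-. Homer1 is the member nearest to Msh3, with a gap of 0.945 Mb on chromosome 13 (93299635 to 93405129 in GENCODE M21 on GRCm38). It had 165.4, 221.2 and 264.8 CPM in Msh3-/- mice and 180.1, 234.9 and 265.4 CPM in WT mice, with a log2 difference of -0.11 (95% interval -0.29 to 0.07). Grm7, at 0.13, had the lowest unadjusted p in Msh3-/- mice (adjusted p = 0.81).

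Sex made no difference that passed. The Q140 effect in females minus that in males passed for 0 members and 0.0% of all genes with edgeR, and DESeq2 called 0 members; 2 members had an unadjusted p under 0.05, Shank3 (log2 -0.21, SE 0.0727) and Grm4 (-0.18).

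The wider receptor machinery moved in both directions. Of 16 auxiliary subunits of AMPA and kainate receptors, 10 fell and 3 rose in Q140 against WT mice, with a median log2 of -0.24. Of all genes, 16.0% fell and 17.0% rose in that comparison. Neto2, an auxiliary subunit of kainate receptors such as those built from Grik2, averaged 90.98 CPM in Q140 and 179.9 CPM in WT mice (log2 -0.98, adjusted p = 1.29e-14), and its relative Neto1 fell by 0.25. Gsg1l, an auxiliary subunit that dampens AMPA receptors, averaged 116.3 CPM in Q140 and 213.7 CPM in WT mice (log2 -0.88, adjusted p = 1.7e-19), and Cacng4, of the stargazin family, fell by 0.46. In Q140 x Msh3-/- against Msh3-/- mice 3 of the 16 fell and 1 rose, where 3.84% of all genes fell and 4.01% rose. A positive interaction passed for 6 of the 16, among them Gsg1l (0.62, adjusted p = 2.47e-08) and Neto2 (0.50, adjusted p = 0.00137), and for 4.09% of all genes.

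Of 22 other postsynaptic and trafficking genes, 11 fell and 3 rose in Q140 against WT mice, where 16.0% of all genes fell and 17.0% rose. Anks1b fell by 0.60, Baiap2, a binding partner of Shank proteins, by 0.48, and Sipa1l1, a spine GTPase regulator, by 0.31, while Grip1, an AMPA receptor anchor, rose by 0.33 (adjusted p = 1.97e-09). Of 9 genes of glutamate transport and metabolism 4 fell and 0 rose: Glul, the astrocytic glutamine synthetase, by 0.25 (adjusted p = 5.68e-06), Slc1a2, the main astrocytic transporter, by 0.24, Slc1a1 by 0.21 and Slc1a3 by 0.14. Astrocyte markers, 2 of which are these transporters, summed to 4252 to 4626 CPM in Q140 and 4920 to 5375 CPM in WT mice, with 5 of 9 lower; their part in the Grm3 and transporter values was not tested.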

How the data were processed

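RNA of the striatum of 48 mice was sequenced from stranded TruSeq libraries, per the labels' protocols. The authors deposited whole-number counts per gene and FPKM values. Per the submitters' processing notes, the tools were STAR 2.7.5c, HTSeq 0.12.3 and SAMtools 1.10 and the build was GRCm38 (mm10); for the annotation release and strand setting, nothing is given in the sources used here. Deposited FPKM values were checked for the 15315 genes with at least 20 counts in every library. Each equalled the count divided by a gene length and the library total (largest relative deviation 2.0e-08). FPKM therefore served to compare levels between genes and for shares within a family.

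Columns were matched to samples by name, and groups, sexes and numbers came from the titles; p-values measure the spread between mice. Genes were kept by edgeR's filterByExpr (minimum count 10), which left 19714 tested and 29081 not. Differences were tested with edgeR 4.0.16 (limma 3.58.1, R 4.3.3): TMM scaling, robust quasi-likelihood fit of all libraries with genotype and sex as terms, 41 residual degrees of freedom, and Benjamini-Hochberg adjustment over the 19714 genes, called at 0.05. The sex difference came from a fit with a term per genotype and sex (36 degrees of freedom). Alternatives were DESeq2 1.42.0, other scalings and filters, a replicate block, each sex alone, name prefix, plate column, and 2 sets of libraries left out. The members and lists were chosen with earlier results of these data known. All 36 are named, with up to 4 genes per pathway list, those of lowest adjusted p. Marker lists are given as counts, medians or sums. Overlapping genes can share reads: Homer3 and Ddx49, Grin2d and Kdelr1, and Grm7 and Gm20387 lie on opposite strands, Grm5 and Gm44846 on the same strand. The number of counts behind a gene (a mean of 4861 for Grm4 and 22963 for Shank3) sets its counting error, which is relatively larger for scarce genes such as Grm2 and Grik1.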

Additional observations from a re-analysis of the deposited data

Results flagged for a closer look

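The Q140 effect differed between the Msh3-/- background and the WT background for 10 members, by the interaction test of the report. The log2 difference was 0.435 for Grm4, 0.431 for Grik2, 0.419 for Shank3, 0.332 for Dlgap3, 0.277 for Grm3, 0.271 for Grm5, 0.257 for Dlg4, 0.208 for Dlgap2, 0.167 for Grik3 and 0.141 for Grid1. Of these, Grm4, Grik2 and Shank3 also passed in Q140 x Msh3-/- against Msh3-/- mice, and the other 7 did not pass there.

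In 17 of 216 sets of 8 mice (a gene in a genotype), the highest or lowest mouse stood far from the others by Dixon's test; chance alone gives about 10.8. Grm2 had 5 of them, all high: 6.375 CPM in female 2 of Q140 x Msh3-/- (next 2.519), 2.502 in male 2 of Q140, 2.889 in female 3 of Msh3-/-, 6.298 in male 4 of Msh3+/- (next 2.281) and 3.65 CPM in female 3 of WT. Male 4 of Msh3+/- was also high for Dlgap1 (164.3 CPM) and Shank1 (169.6 CPM).

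In Q140 x Msh3+/- mice, female 3 was high for Dlg2 (577.7 CPM) and Gria1 (679.7 CPM), male 4 for Gria4 (100.7 CPM) and Grik1 (5.044 CPM), and female 1 was low for Homer3 (5.402 CPM). Female 3 of Msh3-/- was high for Grik2 (187.2 CPM), and female 1 of Msh3+/- for Dlgap2 (142.5 CPM). In WT mice, male 4 was high for Grik5 (354.7 CPM) and Grin1 (779.9 CPM), and female 3 for Grin3a (25.22 CPM).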

How the results depend on the processing

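Over the alternatives fixed at the start, the values of called members kept their call in 614 cases, lost it in 75 and changed sign in none. Counts of called members stayed within 1.5 times the reported count except as follows, and the cause was not tested. For Q140 x Msh3+/- against Msh3+/- mice 15 members passed with name prefix as a term (3 higher and 12 lower, against 24 without it); that fit had 15 residual degrees of freedom. For Q140 x Msh3-/- against Msh3-/- mice DESeq2 called 9 members, adding Dlgap3, Grm7, Grm8 and Shank2 to the 5, and 3 (Dlg3, Grik2 and Shank3) were called without the low-count filter and with plate column as a term. For Q140 x Msh3-/- against Q140 mice 6 members were called in males alone, against 14. With name prefix as a term 8 were called there: 6 of the 14 kept their call, 8 of the 14, Grm5 among them, lost it, and Grm8 and Homer1 gained one. The same term left 5 called for Q140 x Msh3-/- against Msh3-/- mice, of which 2, Grik2 and Shank3, were among the reported 5. For Q140 x Msh3+/- against Q140 mice 1 was called, against 2, without the 2 libraries that stood apart. DESeq2 called 1 member, Grm4, for the interaction with Msh3+/-, where edgeR called 0.

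The sets of libraries to leave out were chosen after seeing the data. Without the 3 libraries highest in glutamatergic markers, 26 members passed in Q140 against WT mice, 5 in Q140 x Msh3-/- against Msh3-/- mice, 15 in Q140 x Msh3-/- against Q140 mice and 9 for the Msh3-/- interaction. With a replicate block, the counts were 25 for Q140 against WT, 24 for Q140 x Msh3+/- against Msh3+/-, 5 for Q140 x Msh3-/- against Msh3-/- (Grm7 in place of Grm4), 14 for Q140 x Msh3-/- against Q140, 12 for Q140 x Msh3-/- against WT and 10 for the Msh3-/- interaction. The numbers did not pair the mice: over 120 pairs of libraries with the same sex and number the median correlation of residuals was -0.0297, and over 360 pairs with other numbers it was -0.0322. Members with few counts, such as Grm2, Grik1, Homer3, Grin2d and Grm8, have the widest relative counting error.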
